A study of Homo sapiens with 2 samples.

Results

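The regions described here are stretches of open chromatin that were strong in a lactate-treated library and absent from the untreated list. Both libraries are ATAC-seq of CAL27, a human oral squamous carcinoma cell line of tongue origin, 1 from cells with no treatment and 1 from cells kept in 10 mM lactate for 24 h. The labels give neither passage nor clone, and with 1 library per group the values set these libraries side by side and carry no replicate check. The untreated library holds 18248413 tags and the lactate library 15401276. A region entered the set when it lay on chromosomes 1 to 22 or X, touched no untreated region by even 1 bp, and had a −log10 Poisson p of at least 7. That p compares the pileup, the number of 200 bp tags over the summit, with the local background and was recomputed from the deposited pileup and fold enrichment. Regions with 1 summit and a width of 218 to 226 bp were left out.

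The rule left 16071 regions, covering 4.75 Mb, among 122399 lactate regions covering 50.2 Mb. This is 13.1% of the lactate list, in which 27.7% of all regions overlapped nothing in the untreated list. Of the lactate-only regions outside the set, 14930 were weaker than the threshold and 2271 were narrow ones past it. Because pileup, fold and listing chose the members, those values are given as a description.

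ATAC-seq reads accessibility through the Tn5 transposase, which inserts adapters where DNA is free of nucleosomes. Such places are mostly promoters, where transcription starts, and enhancers, which bind transcription factors at a distance from the genes they act on. In squamous epithelium, p63 and AP-1 proteins are well known occupants of enhancers. Lactate is the end product of glycolysis, leaves and enters cells through monocarboxylate transporters, and can be attached to histone lysines as lactylation.

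Promoter sequence shows the kind of DNA in the strongest members at gene starts. For the 7 protein-coding genes below, chosen by the highest −log10 p among members with a summit in the RefSeq promoter window (GRCh38.p14, the same build as hg38) and before the start, the 150 bases before the start are printed 5′ to 3′ on the gene's strand. Capitals mark matches, on either strand, to TGANTCA (AP-1), TGACGTCA (CRE), CATTCC (TEAD), CCAAT, GGGGCGGGG (GC box) or CCGGAAG (ETS).
MITF (chr3:69739314-69739463, plus strand): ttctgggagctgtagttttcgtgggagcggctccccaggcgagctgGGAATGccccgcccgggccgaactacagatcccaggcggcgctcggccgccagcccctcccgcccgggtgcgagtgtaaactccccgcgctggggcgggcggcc
MPP2 (chr17:43900625-43900774, minus strand): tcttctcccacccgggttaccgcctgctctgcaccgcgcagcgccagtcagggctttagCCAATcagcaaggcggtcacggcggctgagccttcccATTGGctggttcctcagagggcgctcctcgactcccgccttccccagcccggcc
MICALL1 (chr22:37906147-37906296, plus strand): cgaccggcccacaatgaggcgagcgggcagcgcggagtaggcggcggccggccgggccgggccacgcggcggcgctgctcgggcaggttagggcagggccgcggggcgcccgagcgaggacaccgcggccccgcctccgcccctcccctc
TBC1D9B (chr5:179907898-179908047, minus strand): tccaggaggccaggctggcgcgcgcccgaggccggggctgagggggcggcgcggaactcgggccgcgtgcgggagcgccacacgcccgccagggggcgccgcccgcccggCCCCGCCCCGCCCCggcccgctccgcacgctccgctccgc
EIF2AK2 (chr2:37156981-37157130, minus strand): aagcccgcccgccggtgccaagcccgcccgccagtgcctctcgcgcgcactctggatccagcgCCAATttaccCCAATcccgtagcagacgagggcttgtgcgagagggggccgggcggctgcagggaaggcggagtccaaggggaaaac
CCNE1 (chr19:29811841-29811990, plus strand): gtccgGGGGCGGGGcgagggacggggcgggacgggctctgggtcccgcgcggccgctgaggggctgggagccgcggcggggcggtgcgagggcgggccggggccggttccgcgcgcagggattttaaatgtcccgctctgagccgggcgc
PSAPL1 (chr4:7434931-7435080, minus strand): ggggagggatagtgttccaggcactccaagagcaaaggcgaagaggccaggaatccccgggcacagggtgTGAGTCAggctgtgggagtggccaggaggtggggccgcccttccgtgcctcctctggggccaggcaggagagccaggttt
The MICALL1 stretch holds none of these motifs. CATTCC is marked in MITF, GC boxes in TBC1D9B and CCNE1, CCAAT boxes in MPP2 and EIF2AK2, and an AP-1 match in PSAPL1. A match is a run of letters and not a shown binding site.

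The strongest members reached heights at which nearly all lactate regions were shared. The highest −log10 p, 78.2, belonged to a region in SUN1, a nuclear envelope protein that links the nucleus to the cytoskeleton (chromosome 7, 816407 to 816748, pileup 121, fold 9.70). This region lay within 1 kb of an end of the gene, at 815557, that may be its start. No start of SUN1 was held, so the region is not counted at a start here. FKBP1A, which encodes the prolyl isomerase bound by FK506 and rapamycin, followed with 53.8 at its start, from 59 tags over 774 bp. The next were a 234 bp region in OPCML, an adhesion molecule of the immunoglobulin family (pileup 42, fold 21.6), and a region outside genes 5.37 kb from the start of QTRT1, a tRNA-modifying enzyme (chromosome 19, 10695667 to 10696068, pileup 70). A region 22.7 kb from the start of TEX10 had 61 tags, and 1 at the start of MITF, the helix-loop-helix regulator of pigment cells, had 53.

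The remaining members of this top group were a region in PTK6, an epithelial tyrosine kinase (pileup 110 over a high background, fold 5.95), and regions near WNT5B (59 tags), near PPP2CA, the catalytic subunit of phosphatase 2A (61 tags), and in PLXNA1, a semaphorin receptor (64 tags). By fold alone the first after OPCML lay at chromosome 8, 42587873 to 42588299 (fold 16.3), then 9.78 kb from the start of TSPAN12 (15.5), at chromosome 8, 134972350 to 134972734 (15.5), and in TMEM117 (15.4).

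Most members were far weaker. The median pileup was 15 tags, with a 5% to 95% range of 10 to 36, against a median of 32 in the 64927 shared lactate regions that pass the same threshold and width rule. Median fold was 6.02 against 8.93. The local background was low: 5738 members (35.7%) sat at the floor of 0.994 tags that the library total implies, and 401 had a background above 10 tags. Pileups of 30 or more occurred in 1465 members and of 40 or more in 581.

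The chance of being listed in the lactate library alone fell steeply with height. Among lactate regions that were not narrow, 52.5% (95% exact binomial interval 51.8 to 53.2) with 10 to 14 tags had no untreated counterpart. With 20 to 29 tags it was 18.2% (17.6 to 18.8), and with 60 or more it was 0.718% (0.587 to 0.869), or 104 of 14494 regions. Members were 19.8% of all 80998 such regions past the threshold. In the untreated list, the same rule in reverse left 3190 regions, 5.17% of those past the threshold.

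**Figure D1:**
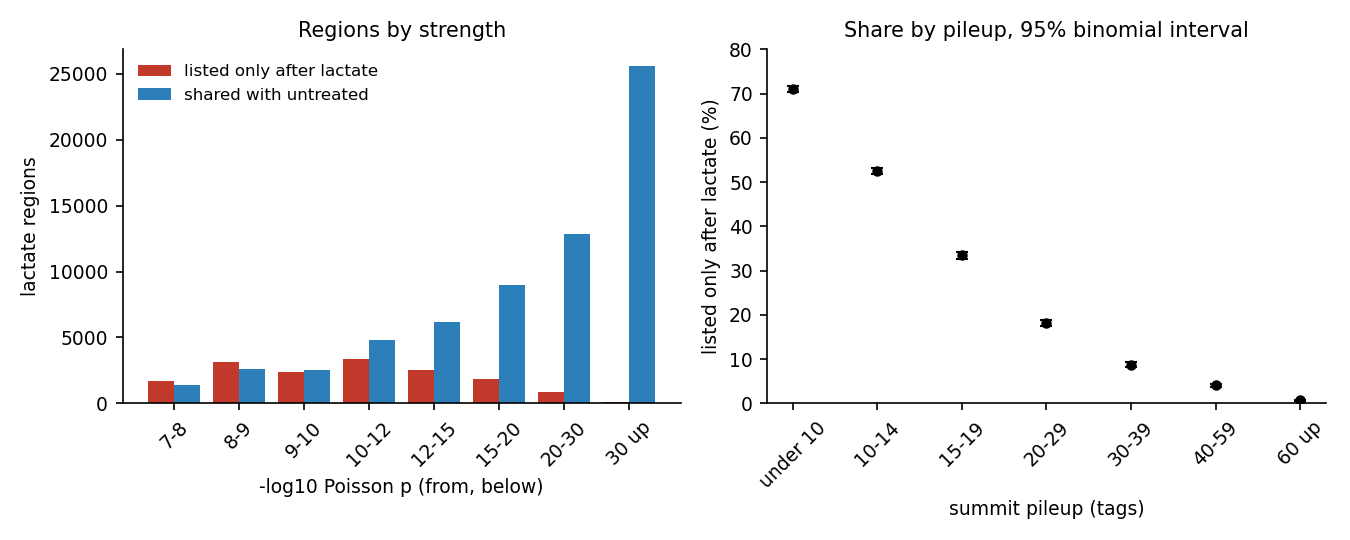
Left, number of lactate regions past the threshold in 8 bins of −log10 Poisson p, listed only after lactate (red) or overlapping an untreated region (blue). Right, share of lactate regions listed only after lactate by summit pileup in tags, with 95% exact binomial intervals, falling from 71.1% under 10 tags to 0.718% at 60 or more.

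At the threshold the heights of members and of lactate-only regions outside it overlapped. The 5 weakest members had −log10 p values of 7.0008 to 7.0099, pileups of 16 to 35 and folds of 2.59 to 3.92, and their nearest starts were those of MBD3, RBFOX3, COPZ2, F3 and NCR3LG1. The 5 regions just outside had 6.997 to 6.998, with 10 to 22 tags and folds of 3.29 to 4.87.

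Absence from the untreated list bounds the untreated signal but does not set it to 0. The weakest untreated region had a recomputed −log10 p of 3.13. If the untreated background at a member was that of the lactate library scaled by total tags, an untreated summit would have needed more than 6 tags (median of the limits, 5% to 95% range 5 to 18) to reach that value. Set against this limit, each divided by total tags, the members' lactate summits were a median of 2.61 times as high (5% to 95% range 1.90 to 4.28). The ratio was 2 or more in 14669 members (91.3%), 3 or more in 5041 (31.4%) and 5 or more in 292. Members had to reach a −log10 p of 7 and the limit stands at 3.13, so high ratios are partly fixed by the rule.

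The limit is not strict, because a taller untreated summit with under 200 bp above the cutoff would also go unlisted. For scale, shared regions past the same threshold had a median lactate to untreated ratio of 1.72 (quartiles 1.36 and 2.16). Weighted to the members' bins of −log10 p, the shared median was 1.32, from 15 lactate and 14 untreated tags. The shared ratios rest on measured untreated summits and the members' ratios on a limit, so their medians are not like measures. FKBP1A stood at 6.99 times its limit of 10 tags, MITF at 6.98 times 9 tags, and OPCML at 9.95 times 5 tags.

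**Figure D2:**
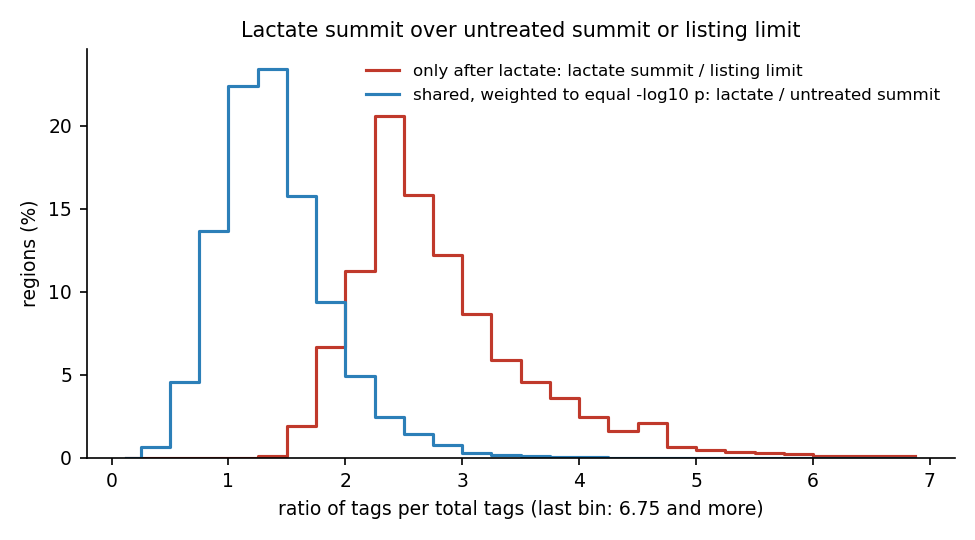
Share of regions (%) by ratio of summit tags, each divided by total tags of its library. For regions listed only after lactate (red) the lactate summit is set against the untreated listing limit, with a median of 2.61, and for shared regions weighted to equal −log10 p (blue) against the untreated summit, with a median of 1.32. These ratios are unlike measures, and the threshold partly fixes the red one.

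Members were narrow and simple in shape. Their median width was 268 bp, against 337 bp in shared regions weighted to the same −log10 p and 201 bp in the untreated-only set weighted likewise. Several summits occurred in 357 members (2.22%), with 3 summits in 12, and in 15.1% of the weighted shared regions. Exactly 1577 members (9.81%, 9.36 to 10.3) were 200 bp wide, the width of a single extended tag, against 10.4% of weighted shared regions and 54.1% (52.3 to 55.8) of the untreated-only set, or 49.2% weighted. Whether regions of this width hold stacked tags, and the part of such tags in the listing, was not tested. Nor was the part of the rule, which bars any overlap with an untreated region, in width and summit number. Among lactate regions past the threshold and not narrow, 53.5% of those under 250 bp were lactate-only, against 0.182% at 1000 bp or more.

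A width of 500 bp or more was found in 822 members and of 1000 bp or more in 8. The widest lay at the starts of ZBTB44, a zinc finger protein (1207 bp, 12 tags), and NFKB1, the p105 and p50 subunit of NF-kappaB (1136 bp, 13 tags). They were followed by a region in SIM2 (1132 bp, 19 tags), a region overlapping FAM83F (1124 bp, 20 tags) and the start of SLC25A43, a mitochondrial carrier (1124 bp, 11 tags). These are wide, low regions, unlike the tall ones named above.

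Most members lay within 10 kb of a region that the untreated library did list. The gap to the nearest untreated region had a median of 6.67 kb. It was under 0.5 kb in 1228 members (7.64%), under 1 kb in 2070 (12.9%, 12.4 to 13.4), under 10 kb in 10013 (62.3%) and under 100 kb in 15966 (99.3%). Untreated-only regions were closer to the other list, with 20.9% (19.5 to 22.4) under 0.5 kb and 26.5% under 1 kb. At larger distances the shares of untreated-only regions and members were close, with 64.0% and 62.3% under 10 kb and 95.7% and 96.1% under 50 kb. Untreated-only regions were measured against the longer lactate list, and the part of list length was not tested. The most isolated member lay in DLC1, 329283 bp from any untreated region (11 tags, 200 bp wide). The others of the 5 most isolated lay 489 kb from the start of STIM2 (12 tags), in PDILT (19 and 11 tags) and 760 kb from the start of VGLL3 (11 tags).

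**Figure D3:**
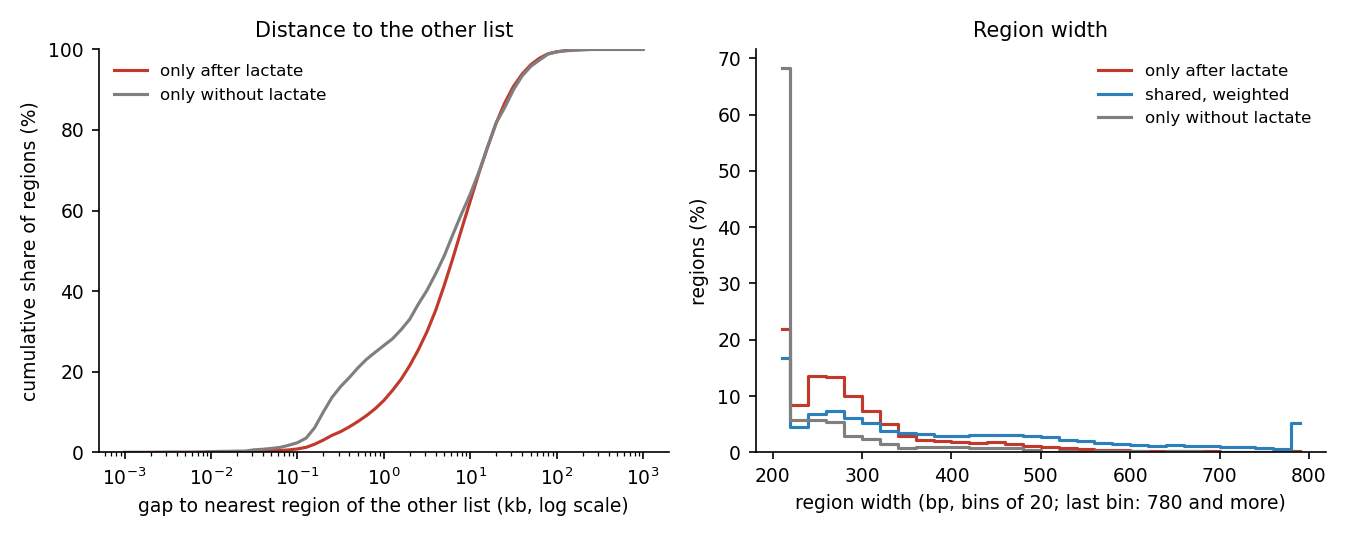
Left, cumulative share of regions (%) by the gap in kb, on a log axis, to the nearest region of the other list, for regions listed only after lactate (red, median 6.67 kb) and only without it (grey). Right, share of regions (%) by width in bp, where the first bin of the untreated-only set holds the 54.1% that are 200 bp wide.

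Members were less often at gene starts than shared regions weighted to the same bins of −log10 p. The rule bars members from any untreated region, and 10019 of 15812 protein-coding genes had a start listed with and without lactate. The part of the rule in the share at starts was not tested. A start means within 1 kb of a RefSeq start of a protein-coding gene. Of the 15370 members outside chromosome 8, for which starts were not used here, 923 (6.01%, 5.63 to 6.39) were at one, against 9.98% of shared regions weighted to the same −log10 p and 16.3% of them unweighted. The members' share was the lower one in each of the 8 bins of −log10 p, from 6.52% against 11.6% in the weakest bin to 11.4% (6.501 to 18.0) against 23.6% in the strongest. That last bin is open from 30 upward, so strength is not matched within it. The highest member stood at 78.2, while the 95% point of all strong shared regions was 90.5. Untreated-only regions had 5.55% (4.76 to 6.42), an interval that includes the members' share. Starts of long noncoding RNA genes held 1.64% of members and 2.38% of weighted shared regions.

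Elsewhere the division was close to that of shared regions. Inside protein-coding genes lay 43.9% (43.1 to 44.7) of members against 42.1%, inside other genes 12.6% against 11.7%, and outside genes 35.8% (35.1 to 36.6) against 33.8%. Members at starts were taller over a higher background than those outside genes, with medians of 22 against 14 tags, 3.02 against 1.16 background tags and folds of 5.24 against 6.02, with chromosome 8 included in the second group.

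**Figure D4:**
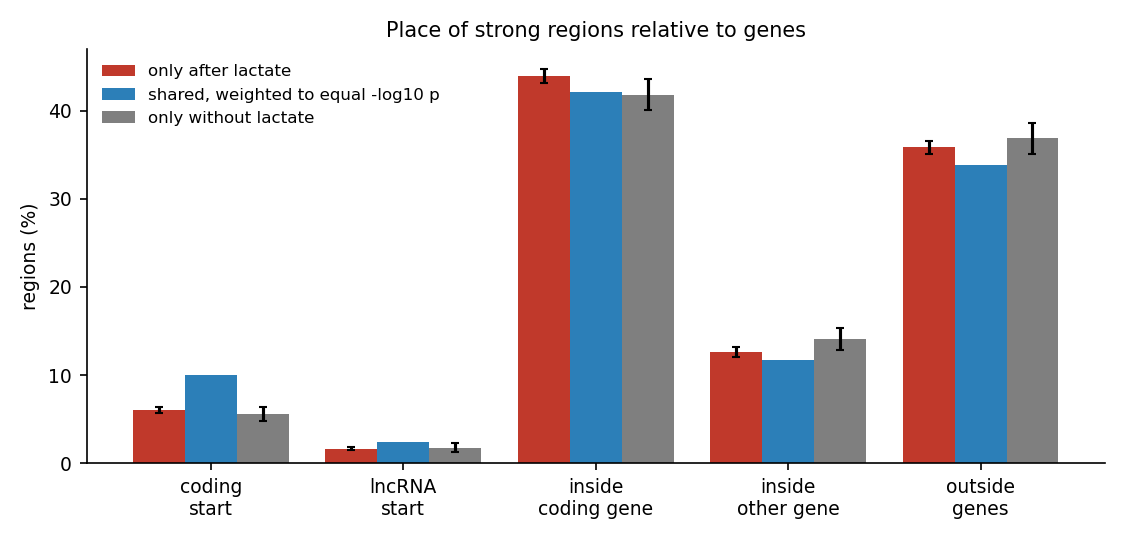
Share of strong regions (%) by place, for regions listed only after lactate (red), shared regions weighted to equal −log10 p (blue) and regions listed only without lactate (grey). Error bars are 95% exact binomial intervals for the unweighted sets, and at protein-coding starts the shares are 6.01%, 9.98% and 5.55%.

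Genes with a member at a start were of 2 kinds, those with no start listed without lactate and those with at least 1 start listed, which need not be the member's own. Of 15812 protein-coding genes with a start in the table, 931 (5.89%) had a member there. At 479 of these no untreated region lay within 1 kb of any start, and at 452 there was one at some start. In the first kind the median gap to an untreated region was 5.49 kb and the median width 323 bp. In the second kind the median gap was 0.442 kb, and 244 of the 452 had a gap under 500 bp, but DNMT3A, for example, had 22613 bp. Over all these genes, 10019 had a start listed with and without lactate, 822 only with it, 104 only without it and 4867 in no list. The 822 include weak and narrow regions that the rule leaves out.

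Among the 10 strongest members at the starts held here, 5 belonged to the first kind and had no untreated region at the start. After FKBP1A came MPP2, a membrane-associated scaffold protein (chromosome 17, 43900525 to 43900828, 57 tags, fold 10.9). TBC1D9B, a Rab GTPase activator, had 44 tags at fold 12.6, and CCNE1, the cyclin that drives entry into S phase, had 44 tags over 766 bp at fold 11.7. PSAPL1, a prosaposin-like gene within SORCS2, had 40 tags at fold 12.1. The others in that group were MITF (gap to an untreated region 104 bp), MICALL1, an adaptor of recycling endosomes (134 bp), EIF2AK2, the double-stranded RNA kinase PKR (215 bp), ARRDC1, an arrestin-domain protein (930 bp), and FRMPD1 (18192 bp, 34 tags), where the untreated region lay at another start of the gene.

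Further down, starts with no untreated region included ALOX12, the 12-lipoxygenase (33 tags), FSTL3, a secreted activin antagonist (58 tags, with an untreated region 148 bp away but outside the 1 kb window), and SSTR5, a somatostatin receptor (52 tags). The summit of the SSTR5 region lay 26 bp before the start of a long noncoding RNA gene, SSTR5-AS1. FOXO4, a forkhead factor (30 tags, fold 13.1), CLPTM1L (37 tags) and CAMK2G, a calmodulin-dependent kinase (43 tags), belong here too. CD80, the T cell costimulatory ligand, had 27 tags, CCL22, a chemokine that attracts regulatory T cells, 30, and SEMA4A 37. A region of 66 tags lay at the starts of both CBLN3 and KHNYN. The genes of this paragraph and the next were chosen after their values were seen.

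Wide members were more frequent at genes with no start listed without lactate. A member may not overlap an untreated region, and the part of this rule in the widths was not tested. A width of 500 bp or more was found at 102 of the 479 genes (21.3%), against 49 of the 452 with an untreated region (10.8%). Besides ZBTB44 and NFKB1 they included ZXDC (1064 bp, 52 tags), VPS54, a subunit of the GARP tethering complex (979 bp, 15 tags), KLF6 (891 bp, 30 tags), the conserved Golgi complex subunit COG1 (859 bp, 24 tags) and SUMO3 (858 bp, 28 tags).

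Promoter windows under member summits were more often extremely rich in G and C. A summit fell into a RefSeq window, 250 bases before to 50 after a start, for 536 members. Their median GC content was 67%, against 64.7% for shared summits weighted to the same −log10 p and 58.7% for all 34781 windows. GC of 75% or more was found in 146 (27.2%, 23.5 to 31.2), against 16.7% of weighted shared windows, 11.1% of shared windows unweighted and 9.62% of all. At the other end, 15.5% of members' windows and 14.1% of weighted shared windows were under 50% GC. The part of base composition in the listing was not tested.

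**Figure D5:**
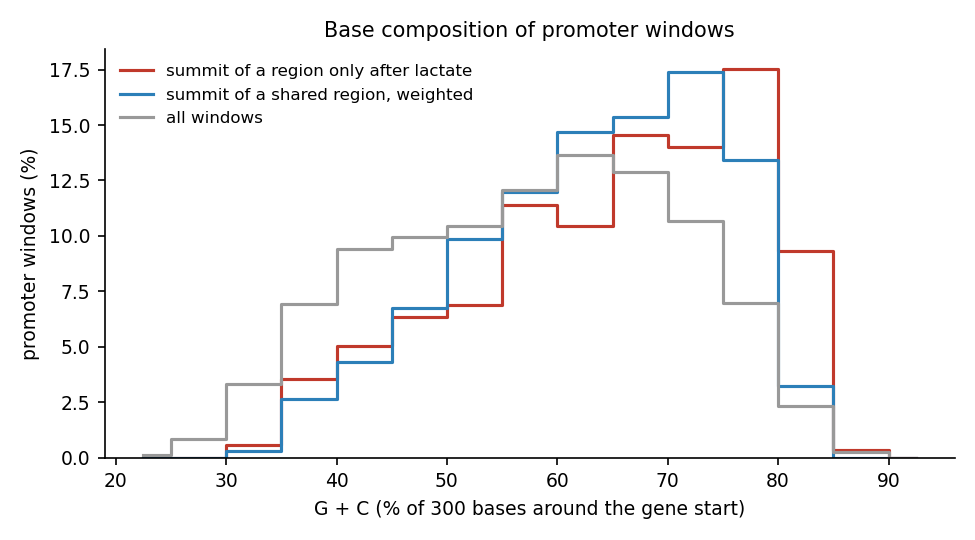
Share of promoter windows (%) by GC content in steps of 5%, for windows holding a summit listed only after lactate (red, 536 windows), a shared summit weighted to equal −log10 p (blue) and all windows (grey). At 75% GC or more lie 27.2%, 16.7% and 9.62% of them.

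Of 20 motifs searched on both strands, 4 had a weighted shared share outside the members' interval: AP-1, which was more frequent in members, and ETS, forkhead and NRF1, which were less frequent. No motif was tested, and the weighted shares have no interval of their own. Unweighted, forkhead was in 2.71% of shared windows, inside the members' interval, while AP-1, ETS and NRF1 stayed outside theirs. Other unweighted shared shares were outside the members' interval too. CCAAT (40.6%) and ACGTG, the HIF core (27.3%), were above it, and AGATAA (4.52%) and TATAAA (4.90%) below it. NRF1 rests on 6 member windows. The AP-1 letters were in 11.8% (9.15 to 14.8) of the 536 windows, 8.88% of weighted shared windows and 7.69% of all windows. Among windows under 50% GC they were in 31.3% (21.6 to 42.4) of 83 member windows, 36.2% (32.2 to 40.4) of unweighted shared and 13.5% of all windows. Among windows of 50% GC or more they were in 8.17% (5.82 to 11.1) of 453 member windows, 6.31% of unweighted shared and 5.13% of all windows. In each GC class the shared share lay inside the members' interval. The ETS letters were in 10.6% (8.15 to 13.6), below the 14.7% of weighted shared windows and close to the 10.2% of all windows. CCAAT was in 27.2% (23.5 to 31.2) against 26.6% and 34.6%, the GC box in 28.4% (24.6 to 32.4) against 26.3% and 15.7%, and the CRE in 2.24% (1.16 to 3.88) against 3.40% and 1.84%. CATTCC was in 10.4%, 11.96% and 14.1% of the windows.

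Of the others, CACGTG (the E-box of MYC and USF) was in 9.33% of member windows and 9.13% of weighted shared ones. ACGTG, the HIF core that also lies inside that E-box, was in 22.6% (19.1 to 26.4) against 24.5%. TGTGGT (RUNX) was in 9.33% against 10.3%, TGTTTAC (forkhead) in 2.24% (1.16 to 3.88) against 4.40%, TTCNNNGAA (STAT) in 6.53% against 7.33%, and GGGANTTCC (NF-kappaB) in 1.68% against 2.45%. AGATAA, bound by GATA family factors, was in 7.09% against 5.74%, the TATA box letters TATAAA in 7.65% against 6.93%, GGGCGTGG (KLF) in 8.21% against 6.26%, and AACCGGTT (GRHL) in 0.187% against 0.241%. In the same order the shares of all windows were 7.24%, 21.4%, 13.1%, 3.42%, 7.66%, 1.85%, 10.4%, 11.6%, 5.03% and 0.132%. The NRF1, interferon response element, p53 family and CTCF core motifs were in 1.12% (0.412 to 2.42), 3.36%, 0% (upper bound 0.686) and 1.68% of member windows against 2.46%, 4.06%, 0.0864% and 1.35%, and in 1.23%, 3.57%, 0.198% and 0.627% of all windows.

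Members overlapped 12 of 1558 microRNA hairpins (0.770%) and lay within 1 kb of 57, while strong shared regions overlapped 101 (6.48%). The shares are not comparable, since there are 64927 shared regions of median width 489 bp against 16071 members of median width 268 bp. The mature forms below belong to 6 of the 12, chosen after their values were seen to show the pairs on opposite strands, with the seed, bases 2 to 8, in capitals.
hsa-miR-152-3p: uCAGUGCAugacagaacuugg
hsa-miR-338-3p: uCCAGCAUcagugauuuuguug
hsa-miR-3065-5p: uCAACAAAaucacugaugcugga
hsa-miR-214-3p: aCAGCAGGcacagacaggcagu
hsa-miR-3120-3p: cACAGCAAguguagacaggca
hsa-miR-6869-5p: gUGAGUAGuggcgcgcggcggc
The 795 bp member over MIR152 (chromosome 17, 48037052 to 48037846) had 18 tags, and the seed of miR-152-3p is shared by miR-148a-3p and miR-148b-3p. One member of 531 bp and 35 tags covered MIR338 and, on the opposite strand, MIR3065. A 234 bp member of 11 tags covered MIR214 and, opposite it, MIR3120; the seed of miR-214-3p is shared by miR-761 and miR-3619-5p. MIR6869 lies in the FKBP1A region. The other hairpins were MIR762, MIR1199, MIR1276, MIR4710, MIR5091 and MIR7157.

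Gene groups are given beside all 19974 protein-coding genes, of which 5199 (26%) were overlapped by a member. Within 50 kb of all these genes, members made up 17.9% of strong lactate regions, counted once per gene. Genes of a list differ in length, and long genes are overlapped more often. Starts were held for only 15812 of all these genes, so counts of list genes with a member at a start may be too low. For the rest, a member at an end of the gene may lie at its start. The lists cover 23 themes.

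Of 17 genes of lactate transport and metabolism, 3 were overlapped and 16.2% of strong regions within 50 kb were members. SLC16A3, the lactate exporter MCT4, had a further region of 33 tags (fold 5.07) at 1 of its starts, 6390 bp from any untreated region, while another start of the gene was listed without lactate. LDHC, the testis form of lactate dehydrogenase, had 18 tags at its other end, and PDK1, which inhibits pyruvate dehydrogenase, 16 and 19 tags in 2 members inside the gene. Of 19 glycolysis genes, 6 were overlapped (31.6%), above the share of all genes, while 12.3% of strong regions nearby were members, below it. They included PFKFB4 (26 tags), PFKL (31 tags, 23 bp from an untreated region) and ENO1 (36 tags).

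Of 16 proposed lactylation writers and erasers, 4 were overlapped, with 19.2% of strong regions within 50 kb being members, above the share of all genes, but 16.7% within 100 kb, below the 17.8% of all genes there. KAT2B, an acetyltransferase, held 5 of them among 9 strong regions of the gene and its ends, 2 at the start (16 and 13 tags) and 3 within (15, 18 and 12 tags). No untreated region lay within 1 kb of its start, but the 2 members there were 1212 and 529 bp from one. KAT2A, KAT7 and AARS1 had 1 member each inside the gene, with 26, 11 and 12 tags. Of 18 hypoxia response genes, 3 were overlapped (15.7% nearby), with 16 tags at the far end of VEGFA and 49 at that of DDIT4 over a high background (fold 2.52).

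Of 18 squamous identity genes 4 were overlapped, with 16.7% of strong regions nearby. TP63, the master regulator of stratified epithelium, held 5 members among 14 strong regions, with 21, 18, 13, 17 and 16 tags. The 3 with folds of 7.02 to 11.03 lay 12001 to 22279 bp from any untreated region. KRT6B, a keratin of activated epithelium, had 16 tags over 616 bp at an end of the gene that may be its start. KRT17 had 72 tags at fold 2.56.

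Of 18 differentiation genes 2 were overlapped (20.3% nearby): IVL, the cornified envelope precursor involucrin, had 44 tags at its start, and S100A8 13 tags. Of 20 junction genes 4 were overlapped (15.6% nearby), with 80 tags in CDH3, the P-cadherin gene, 36 in TJP1, 18 in PKP1 and 42 in CDH1 at fold 2.52. Hemidesmosome and integrin genes are long, with a median of 67.1 kb, and 8 of 16 were overlapped (14.5% nearby). ITGA6 had 55 tags, ITGB4 27, DST 8 members of 10 to 27 tags and ITGB6 12 tags at a start.

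Of 18 genes of epithelial-mesenchymal transition 8 were overlapped and 3 had a member at a start (18.9% nearby). TGFB1, the growth factor, had 31 and 37 tags in 2 members at a start with no untreated region within 1 kb. These members were 507 and 1568 bp from one. Its receptor TGFBR1 had 41 tags and the repressor ZEB1 18, at 158 and 557 bp from an untreated region. Of 18 matrix remodelling genes 5 were overlapped (17.4% nearby), with 21 tags in MMP9, 38 in CTSB and 22 at the far end of PLAU, the urokinase gene.

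Growth factor genes are long as well, with a median of 92.0 kb, and 10 of 21 were overlapped (15.2% nearby). FGFR1 had 30 tags at fold 13.6, IGF1R 21 tags at fold 9.24, NRG1 8 members of 12 to 26 tags among 25 strong regions, and AREG, the amphiregulin gene, 26 tags at its far end. Of 22 Notch, Wnt and Hippo genes 5 were overlapped (17.4% nearby), among them WNT7B (49 tags), TCF7L2 (15 tags) and WWTR1, which encodes TAZ (24 tags).

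Of 17 AP-1 and immediate early genes 6 were overlapped and 3 had a member at a start (12.1% nearby). IER2 had 71 tags at fold 3.15, FOSL2 55 at 3.50, FOS 30 at 3.24 and EGR3 33 at 6.54. Of 20 NF-kappaB and cytokine genes 6 were overlapped (15.7% nearby), with NFKB1 and CCL20 at starts and 31 tags at the far end of IL6. Of 18 interferon response genes 6 were overlapped, with 10.6% of strong regions nearby, the lowest of the 23 lists at 50 kb; within 100 kb it was 13.2%, and the AP-1 list was lowest with 12.2%. IFIT1 had 19 tags 145 bp from an untreated region and IFIT3 26 tags inside the gene.

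Of 20 cell cycle genes 7 were overlapped and 3 had a member at a start (20.2% nearby). Both strong regions of CCNE1 were members, the start described above and a 290 bp region of 16 tags within the gene. E2F1 had 38 tags, CDK2 53 and CCND3 25. Of 20 chromatin regulator genes 9 were overlapped and 4 had a member at a start, with 22.4% nearby, the highest of the lists, as was its 20.8% within 100 kb. KDM6B, an H3K27 demethylase, had 55 tags, the methyltransferase genes KMT2A and KMT2C 20 and 19 tags over 745 and 720 bp, and DNMT3A 12 tags. At KMT2C no untreated region lay at the start. The list's median length was 93.7 kb, against 24.2 kb for all genes.

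Of 16 oxidative stress genes 4 were overlapped (20.3% nearby), with 46 tags near a start of TXNRD1, the thioredoxin reductase, and 71 at fold 3.48 beyond GPX4. Of 16 housekeeping genes 1 was overlapped (12.8% nearby), and ACTB had 99 tags at fold 2.07 at its far end.

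The label of a squamous line was checked at marker genes. Of 12 squamous markers, 10 had a region at a start or end in each library, and KRT14 and TP63 had none there in the lactate library. For fibroblast, leukocyte, endothelial and neuronal markers these numbers were 5 of 11, 7 of 13, 3 of 10 and 6 of 12 in the lactate library and 5, 8, 3 and 7 in the untreated one. Members overlapped 1, 1, 4 and 5 of them, and 14.0%, 14.9%, 14.1% and 21.0% of strong regions within 50 kb were members. COL3A1 had 20 tags at fold 10.5, VWF, the endothelial clotting factor gene, 45 tags at fold 10.8, and RBFOX3, a neuronal splicing factor, 27 tags at fold 11.02. None of the 4 lists had a member at a start.

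The genes with the most members were very long. TENM2, a synaptic adhesion protein over 1285 kb, held 11, and ASTN2, DNM3, PDE1C and PTPRN2 held 10 each. CAMTA1, CAST, FSTL4 and GLIS3 held 9, as did NAV2, which comes after them in alphabetical order. In TENM2, 11 of 36 strong regions were members, with 11 to 17 tags. In all, 154 genes were overlapped by 5 or more members and 6 by 10 or more.

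By share of strong regions the order was different, a ranking made after the values were seen. Among 1209 genes with 8 or more strong lactate regions the median share of members was 18.8%, 43 genes stood at 50% or more and 124 had no member. ANKS1B, a postsynaptic scaffold gene, led with 8 of 9, with 10 to 25 tags each and gaps of 6850 to 58660 bp to an untreated region. ADGRB1 followed with 6 of 8, ATRNL1 with 7 of 10, CACNA1B, a neuronal calcium channel, with 7 of 11 and BCOR, a transcriptional corepressor, with 5 of 8, a share that DLGAP2, NEO1 and SYNE1 had too.

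Members were spread over the genome. Of 2835 windows of 1 Mb with a strong lactate region, 2664 held a member, with a median of 5, and 18 held 20 or more. The 3 richest windows were on chromosome 19, from 1 to 2 Mb with 31 members (29.5% of strong regions), 17 to 18 Mb with 27 and 46 to 47 Mb with 27. Next were 37 to 38 Mb on chromosome 22 and 136 to 137 Mb on chromosome 9, with 24 each. These windows are dense in genes and regions, with 81 to 105 strong lactate regions each.

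Neighbouring members were mostly far apart, with a median gap of 44.5 kb to the nearest other member. It was under 1 kb for 329 members (2.05%) and under 10 kb for 2689 (16.7%). By chromosome, members were 16.9% (15.5 to 18.4) of strong regions on chromosome 15 and 24.7% (23.1 to 26.3) on chromosome 4, with chromosome X at 23.2% (21.3 to 25.1). On chromosomes 4 and X the untreated-only share was high too, at 9.04% and 8.78%. On chromosomes 19 and 22 it was 2.75% and 2.21%, beside member shares of 20.9% and 19.4%.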

How the data were processed

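ATAC-seq of 1 untreated and 1 lactate-treated CAL27 library was used. Per the submitters' processing notes, the tools were fastp 0.20.0 with BWA 0.7.12 and MACS2 2.1.0, on build hg38. A different caller version, MACS 2.2.7.1, stands in the file headers. Per the file headers, the authors called regions in each library alone, at a q-value threshold of 0.05 with tags extended to 200 bp and shifted by 100 bp. The deposited pileup is a signal in tags, not scaled for depth, and the deposited fold enrichment is the ratio of pileup to local background, with 1 added to each. The background was recovered from both, and −log10 p is the Poisson upper tail above the pileup, at a region's best summit.

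Overlaps counted from 1 bp, and 33938 lactate-only regions were found by the interval code and by bedtools 2.31.1. The code was tested on simulated intervals. Python 3.11.15, scipy 1.17.1 and pandas 2.3.3 were used. Genes and promoter windows came from RefSeq (GRCh38.p14), with starts for 15812 of 19974 protein-coding genes. Starts on chromosome 8 were not used here, and that chromosome is left out of shares at starts. All 394 list genes were matched by symbol or synonym. Intervals are exact 95% binomial intervals that cover counting error only, and regions are not replicates. Named regions were the strongest, widest, most isolated and those at the threshold, the strongest at starts, the genes and 1 Mb windows with the most members, and up to 4 genes per list. A gene that this rule names is not reported here. The members and lists were chosen with earlier results of these data known.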

Additional observations from a re-analysis of the deposited data

How the results depend on the processing

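No paired analysis was possible because there was 1 library with lactate and 1 without. Of 32 alternative values, 15 stayed within 1.5 times a count or the interval of a share and 17 moved. At a −log10 p of 5 there were 26982 members and at 10 there were 8780. The share of members at either end of a gene, 8.41% with the settings of the report, was 7.39% at a threshold of 5, 9.13% at 10, 7.18% without members under 500 bp from an untreated region, 7.81% with narrow regions kept, 5.62% with a fold of 5 in place of −log10 p, and 13.8% in a window of 2.5 kb. The share inside genes was 43.0% and, at a threshold of 10, 42.2%. The share within 1 kb of an untreated region was 11.6% at 5, 12.2% at 10, 5.67% without members under 500 bp, which follows from the construction, and 7.59% by fold. Several summits occurred in 1.63% at 5, 1.95% with narrow regions, 1.40% by fold and 2.46% without regions of 200 bp, an alternative added after seeing the data. Otherwise the cause was not tested. Gene lists above the share of all genes numbered 7 of 23 within 50 kb and 8 within 100 kb, 6 of them in both: lactylation writers and erasers fell below it at 100 kb, and matrix remodelling and Notch, Wnt and Hippo signalling rose above it. The untreated library is the deeper one, and the part of depth in the listing was not tested.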
